A study of Arabidopsis thaliana with 24 samples.

Results

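The ATG8 family of Arabidopsis thaliana, the 9 genes ATG8A to ATG8I, was followed by gene identifier in total and polysomal RNA of seedlings. All 9 were among the 38088 genes of the deposited table, and all 9 passed the filter on low values that left 20964 genes for testing. ATG8 is the small ubiquitin-like protein of autophagy, the process by which a cell encloses part of its cytoplasm in a membrane and delivers it to the vacuole for breakdown. The protease ATG4 trims the new protein down to a glycine, and ATG7, ATG3 and the ATG5-ATG12-ATG16 complex attach that glycine to the lipid phosphatidylethanolamine in the growing membrane. There ATG8 helps the membrane grow and holds cargo receptors such as NBR1. Yeast has a single such gene, and plants carry a family.

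Seedlings of Col-0, the wild type, were compared at an age of 5 days with those of the mutant line dcp5-1. DCP5 is an RNA-binding protein of processing bodies that promotes removal of the cap of messengers, and dcp5-1 is the only mutant allele in the series. All seedlings rested in liquid medium for 30 min, and the T15 groups then spent 15 min in medium with 150 mM NaCl while the T0 groups spent 0 min. Total RNA came from the lysate and polysomal RNA from its pooled polysome fractions, which gave 8 groups of 3 libraries, 24 in all, all from whole seedlings. No group was moved for 15 min to medium without NaCl, so the effect of NaCl cannot be told apart from that of transfer and time. In whole seedlings, fewer cells expressing a gene and less of its RNA per cell cannot be told apart either. No label states that the 3 samples of a group were separate cultures, so the p-values measure the spread between these samples, which may be technical.

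Levels are FPKM as deposited, fragments scaled to transcript length and to the fragments of the library. The spacing of low values implied 14520000 to 18970000 fragments per library, and 71 to 5525 fragments stood behind the 9 ATG8 values of a library. The smallest of these, for ATG8G, carried a counting error of 11.9%, which covers counting alone. Changes are differences of log2(FPKM + 1), given with their standard error (SE) from limma with 3 libraries per group, and a gene changed where its Benjamini-Hochberg adjusted p over 20964 genes was below 0.05. Columns of the table marked IP were read as polysomal. If that reading is wrong, the fractions exchange names and every sign of polysome association turns. DCP5 itself lay between 48.5 and 52.1 FPKM in Col-0 T0 total RNA and between 13 and 13.2 in dcp5-1, and its log2 difference between the genotypes ran from -2.13 to -1.88 over both times and fractions.

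The coding ends of the 9 genes are shown because they carry the step on which the family divides. They were read from the RefSeq copy of TAIR10.1 and end with the stop codon, and capitals mark the codon of the glycine that ATG4 exposes.
ATG8A (AT4G21980, chr4:11656765-11656809, plus strand): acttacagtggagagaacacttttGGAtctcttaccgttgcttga
ATG8B (AT4G04620, chr4:2328663-2328707, minus strand): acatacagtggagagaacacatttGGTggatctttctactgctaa
ATG8C (AT1G62040, chr1:22934209-22934253, plus strand): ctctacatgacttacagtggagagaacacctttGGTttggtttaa
ATG8D (AT2G05630, chr2:2083211-2083255, minus strand): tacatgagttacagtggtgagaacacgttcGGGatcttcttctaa
ATG8E (AT2G45170, chr2:18625482-18625526, plus strand): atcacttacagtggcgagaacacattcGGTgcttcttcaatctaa
ATG8F (AT4G16520, chr4:9306882-9306926, minus strand): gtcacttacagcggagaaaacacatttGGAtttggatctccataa
ATG8G (AT3G60640, chr3:22416927-22416971, plus strand): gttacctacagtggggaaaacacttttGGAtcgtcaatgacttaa
ATG8H (AT3G06420, chr3:1955219-1955263, minus strand): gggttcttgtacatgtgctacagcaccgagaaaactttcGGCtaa
ATG8I (AT3G15580, chr3:5274075-5274119, minus strand): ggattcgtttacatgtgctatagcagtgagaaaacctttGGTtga
In ATG8A to ATG8G, 2 to 5 further codons follow the glycine and must be removed before lipidation. ATG8H and ATG8I have 0 codons between it and the stop, so that their proteins are made with the glycine exposed. Coding identity over the 36 pairs was highest for ATG8A and ATG8B at 87.1%, with a longest identical run of 53 nt, and no pair shared a run of 100 nt. The share of reads that fit more than 1 member is not known for these values, so the separate levels of close pairs such as ATG8A and ATG8B are uncertain. The annotated span of the ATG8A gene, introns included, overlaps that of AT4G21990 on the opposite strand by 27 nt. The span of ATG8I overlaps that of AT3G15578 by 183 nt, also on the opposite strand. How much of this lies in exons was not computed. AT4G21990 lay between 5.06 and 17.6 FPKM, and AT3G15578 was listed at 0 in all 24 libraries. The kit is not stated to keep strand.

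The 250 nt before the annotated gene start are given for the 3 genes that separated the genotypes most clearly below, ATG8E and ATG8F, which were lower in dcp5-1, and ATG8D, which was higher. Capitals mark ACGTG or its reverse complement, the core of the element bound by bZIP factors of the abscisic acid pathway.
ATG8E (chr2:18624014-18624263, plus strand): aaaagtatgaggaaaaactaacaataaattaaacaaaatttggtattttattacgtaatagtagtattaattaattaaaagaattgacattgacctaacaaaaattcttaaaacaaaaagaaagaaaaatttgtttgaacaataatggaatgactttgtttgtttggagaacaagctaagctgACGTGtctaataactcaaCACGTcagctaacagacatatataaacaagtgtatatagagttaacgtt
ATG8F (chr4:9308539-9308788, minus strand): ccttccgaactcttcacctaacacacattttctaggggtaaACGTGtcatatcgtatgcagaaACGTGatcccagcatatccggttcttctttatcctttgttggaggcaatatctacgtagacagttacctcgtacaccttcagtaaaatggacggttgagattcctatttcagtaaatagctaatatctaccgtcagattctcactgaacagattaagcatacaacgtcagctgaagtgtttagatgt
ATG8D (chr2:2084906-2085155, minus strand): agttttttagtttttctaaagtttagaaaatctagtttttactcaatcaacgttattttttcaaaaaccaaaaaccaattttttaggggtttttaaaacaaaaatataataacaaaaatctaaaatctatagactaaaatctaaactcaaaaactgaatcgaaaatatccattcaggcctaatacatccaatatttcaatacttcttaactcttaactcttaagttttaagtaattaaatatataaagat
The window of ATG8E held 2 ACGTG matches, at -67 and -49 from the gene start, and that of ATG8F held 2, at -209 and -187. Windows of ATG8G, ATG8H and ATG8I held 1 each, and those of ATG8A to ATG8D held 0, so that 5 of 9 members carried it against 22.9% of 27443 promoters of the same length. The TGA core TGACG, which can overlap ACGTG by sharing the letters ACG, was in 6 of 9 against 18.6%. On both strands, the W-box TTGAC was in 2 of 9 against 44.9%, the CRT/DRE core CCGAC in 2 of 9 against 12.0%, and the G-box CACGTG, which contains ACGTG, in 0 of 9 against 6.5%. The window of ATG8D held none of the 5 motifs. These matches describe letters only.

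In Col-0 at T0, ATG8E was the highest member in total RNA and ATG8G the lowest. ATG8E measured 451, 523 and 442 FPKM in the 3 libraries, and ATG8F measured 309, 273 and 287. Every ATG8E library lay above every ATG8F library. ATG8C at 134 ± 14.7 FPKM (SD, n = 3) and ATG8A at 132 ± 7.64 (SD, n = 3) overlapped, and ATG8H followed at 111 ± 4.56 (SD, n = 3). ATG8I at 50.0 ± 3.39 and ATG8B at 49.6 ± 0.363 also overlapped, ahead of ATG8D at 34.3 ± 5.34 and ATG8G at 20.7 ± 2.6 (SD, n = 3 each). Averaged over the 24 libraries, ATG8E was higher than 96.6% of the genes tested and ATG8G higher than 57.7%. The order held in its outline everywhere: ATG8E and ATG8F were the top pair and ATG8G the lowest in all 8 groups.

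**Figure D1:**
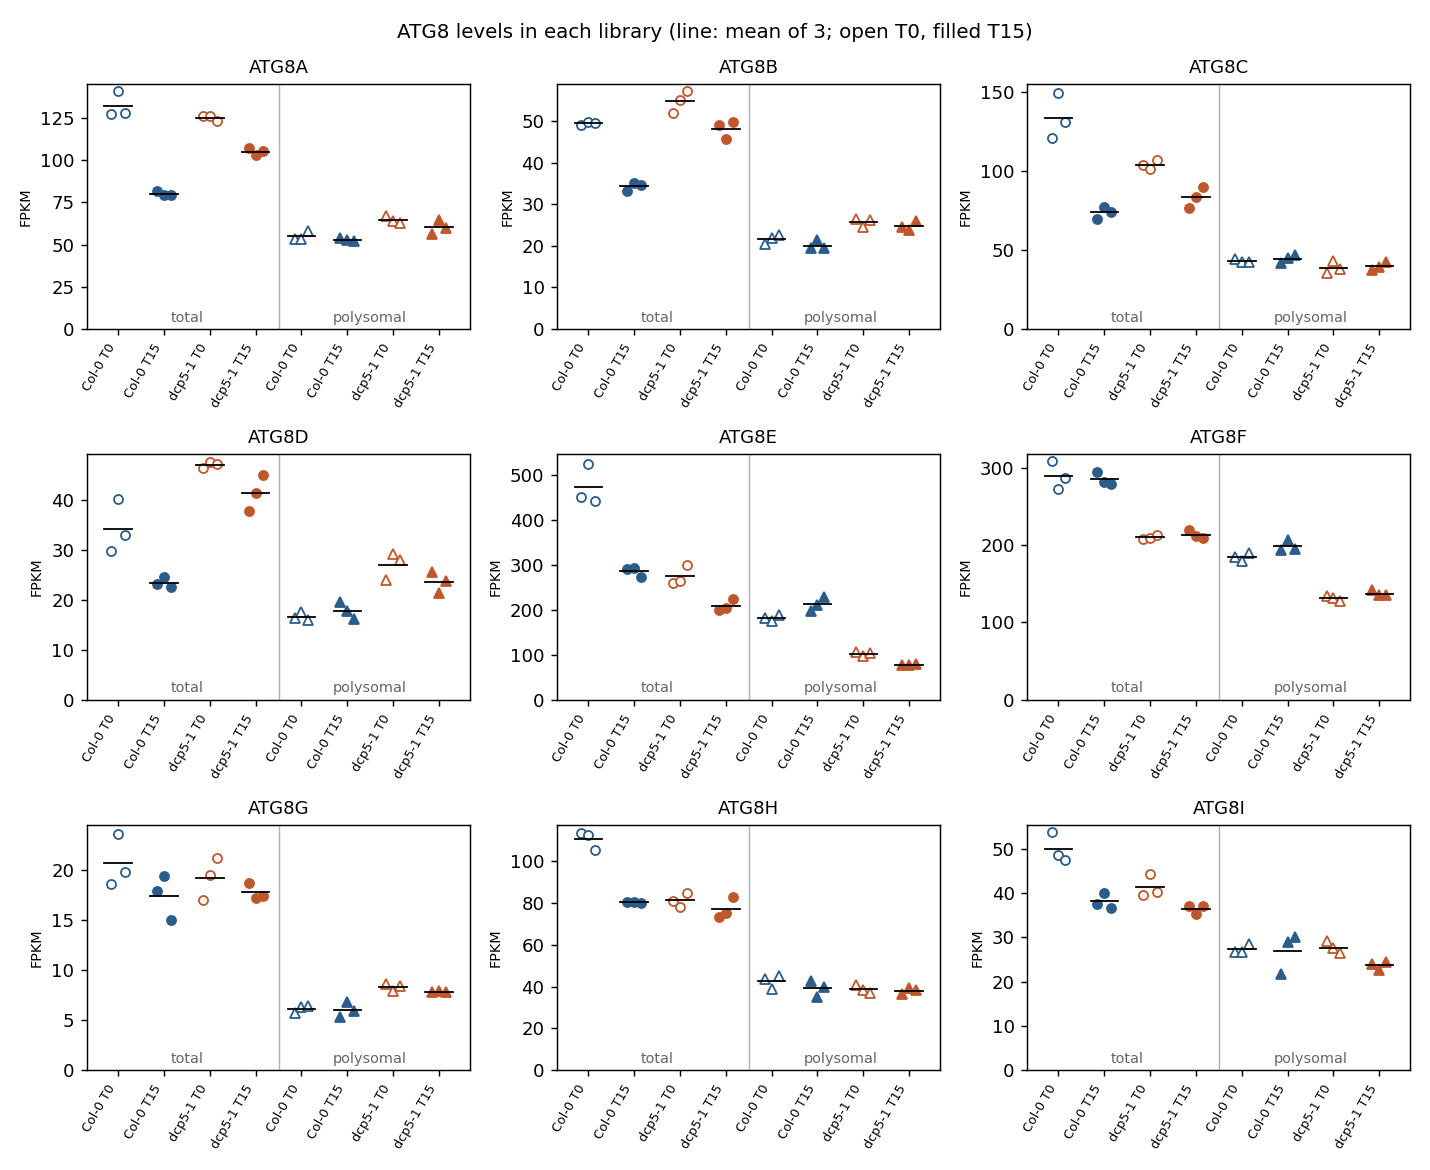
FPKM of each ATG8 gene in each of the 24 libraries, with total RNA to the left of the grey line and polysomal RNA to its right, and with the line at the mean of 3 libraries (blue Col-0, orange dcp5-1, open T0, filled T15). ATG8E in dcp5-1 polysomal RNA at T15 lies at 76 to 79.6 FPKM against 198 to 227 in Col-0, while ATG8D is higher in dcp5-1 than in Col-0 in all 4 pairs of groups.

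The leading place changed between groups. In Col-0 total RNA at T15, ATG8E at 285 ± 10.3 FPKM and ATG8F at 285 ± 8.14 (SD, n = 3 each) overlapped, and they overlapped in Col-0 polysomal RNA at T0 and at T15. In dcp5-1 polysomal RNA, ATG8F was above ATG8E without overlap, at 135, 132 and 127 against 106, 96.8 and 103 FPKM at T0. At T15 the gap was wider, with ATG8F at 142, 135 and 135 and ATG8E at 77.4, 76 and 79.6 FPKM. ATG8E made up 36.5% ± 1.69 of the summed ATG8 FPKM in Col-0 total RNA at T0 (SD, n = 3), its highest share, and 17.9% ± 0.257 in dcp5-1 polysomal RNA at T15, its lowest. ATG8D stood at 2.64% ± 0.306 of the sum in the former group and at 5.45% ± 0.465 in the latter. These are differences in make-up across a change of genotype, time and fraction together, given as a description. The summed FPKM itself was 1293 ± 62 in Col-0 total RNA at T0 and 433 ± 4.21 in dcp5-1 polysomal RNA at T15 (SD, n = 3 each).

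**Figure D2:**
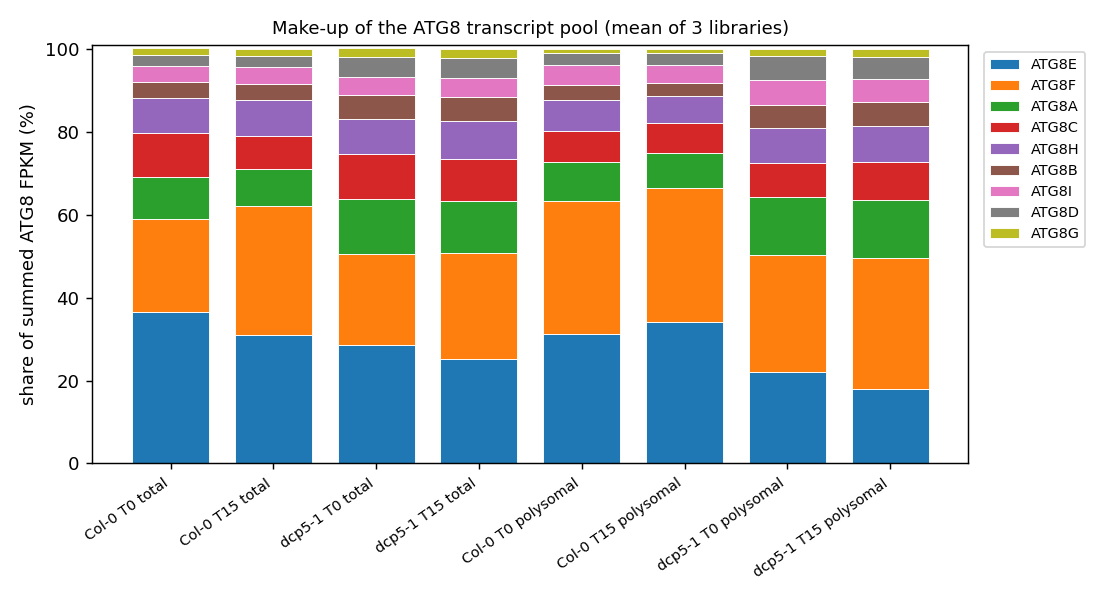
Share of each gene in the summed ATG8 FPKM, in percent, as the mean of 3 libraries in each of the 8 groups. The ATG8E segment shrinks from 36.5% in Col-0 T0 total RNA to 17.9% in dcp5-1 T15 polysomal RNA, and ATG8F is the largest segment in both dcp5-1 polysomal groups. ATG8F also leads ATG8E narrowly in Col-0 T0 polysomal RNA (32.0% against 31.3%) and dcp5-1 T15 total RNA (25.7% against 25.1%).

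Each of the 9 ATG8 messengers was lower in polysomal than in total RNA, in both genotypes and at both times. In Col-0 at T0 the log2 differences ran from -1.61 ± 0.076 (SE) for ATG8C to -0.64 ± 0.045 for ATG8F. ATG8C measured 44.1, 42.7 and 42.8 FPKM in polysomal RNA against 121, 150 and 131 in total RNA, with no overlap. The 9 called members stood against 36% of all genes lower at T0 in Col-0, 29.8% at T15, 36.3% in dcp5-1 at T0 and 32.8% at T15. Their median difference was -1.24, -0.59, -1.06 and -0.93 in these 4 states, against -0.023, -0.0011, -0.037 and -0.013 over all genes. Transcript length moved with this difference. ATG8 transcripts measured 712 to 1259 nt with a median of 992 nt, against 1648 nt for all tested genes, and the trend on length and GC content took up 36.6% of the variance between genes in Col-0 at T0. Here and below, a value with the trend removed is the change minus the fitted value of the trend. It places a gene above or below genes of like length and GC content and is not itself a rise or a fall. Its p uses the SE and degrees of freedom of limma and leaves out the error of the trend. With that trend removed, ATG8C still differed by -0.84 and ATG8G by -1.43 (limma, adjusted p of 2.9e-09 and 2.4e-11). ATG8E in Col-0 at T15 was then at -0.09 and ATG8I in dcp5-1 at T0 at -0.01, with adjusted p from limma of 0.26 and 0.95. Every other value of the family in the 4 states stayed lower and passed the test. Of all genes, 33.7% and 31.8% were then lower in Col-0 at T0 and T15, and 34.6% and 33.5% in dcp5-1.

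The comparison of dcp5-1 with Col-0 asks how these messengers differ in a line with less DCP5 RNA. That line carries the only mutant allele here, so an effect of DCP5 cannot be told apart from other differences of the line. ATG8E and ATG8F were lower in the mutant in both fractions and at both times, and ATG8D and ATG8B were higher throughout. In total RNA at T0, 5 members were lower and 2 higher, against 28.6% and 19.5% of all genes. ATG8E measured 451, 523 and 442 FPKM in Col-0 and 260, 264 and 299 in dcp5-1, with no overlap between the genotypes. It was lower by -0.78 ± 0.068 on the log2 scale (SE, limma adjusted p = 4.3e-09), 0.582 times the Col-0 value. ATG8F measured 309, 273 and 287 FPKM in Col-0 and 209, 209 and 214 in dcp5-1, again without overlap. Its difference was -0.46 ± 0.045 (limma, adjusted p = 3.3e-08). ATG8H, one of the members made with the glycine exposed, measured 114, 113 and 105 FPKM in Col-0 and 80.8, 78.3 and 85 in dcp5-1, a difference of -0.44 ± 0.065. ATG8C (-0.36 ± 0.076) and ATG8I (-0.27 ± 0.082) completed the members that were lower, and ATG8I lost its call without the first Col-0 T0 total library (-0.21, adjusted p = 0.057 by limma). Once organelle-encoded genes were removed and the rest rescaled, 3 members were higher and 3 lower, against 37.5% and 14.2% of all genes. ATG8C at -0.14 and ATG8I at -0.05 did not pass, and ATG8A passed as higher at 0.14 (limma, adjusted p of 0.062, 0.62 and 0.017). Under that rescaling 72.5% of the genes called were higher in dcp5-1, against 40.6% as deposited, and in polysomal RNA at T0 73.9% against 47.7%.

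ATG8D went the other way at T0. In total RNA it measured 29.7, 40.2 and 32.9 FPKM in Col-0 and 46.5, 47.7 and 47.3 in dcp5-1. All 3 mutant libraries lay above the highest Col-0 library, and the difference was 0.46 ± 0.093 (SE, limma adjusted p = 0.00031). ATG8B was higher by 0.14 ± 0.052, from 49.2, 49.9 and 49.6 to 52.1, 55.1 and 57.2 FPKM, but 4 of the 6 libraries could each not be left out without losing the call, with adjusted p from limma up to 0.128. ATG8A at -0.08 ± 0.049 and ATG8G at -0.10 ± 0.097 did not pass the test.

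In polysomal RNA at T0, 4 members were higher and 2 lower, against 21.9% and 24% of all genes. ATG8E measured 182, 174 and 188 FPKM in Col-0 and 106, 96.8 and 103 in dcp5-1, so that the groups stood clear of each other. Its difference was -0.82 ± 0.068 (limma, adjusted p = 2.3e-09), and that of ATG8F was -0.49 ± 0.045. ATG8D measured 16.3, 17.5 and 15.9 FPKM in Col-0 and 24.1, 29.1 and 28 in dcp5-1, higher by 0.67 ± 0.093 (limma, adjusted p = 4.0e-06). The other members that were higher were ATG8G at 0.39 ± 0.097, ATG8B at 0.24 ± 0.052 and ATG8A at 0.23 ± 0.049. ATG8G measured 5.68, 6.28 and 6.45 FPKM in Col-0 and 8.66, 7.91 and 8.39 in dcp5-1, and the groups did not overlap. ATG8C (-0.15 ± 0.076), ATG8H (-0.13 ± 0.065) and ATG8I (0.02 ± 0.082) did not pass, and their groups overlapped. With the trend on length and GC content removed, ATG8C (-0.23) and ATG8H (-0.23) were lower as well (limma, adjusted p of 0.018 and 0.0068). That made 4 members lower, against 23.4% of all genes.

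In total RNA at T15, 3 members were higher and 2 lower, against 24% and 26.1% of all genes. ATG8D measured 23.2, 24.6 and 22.6 FPKM in Col-0 and 37.8, 41.4 and 45.1 in dcp5-1, higher by 0.79 ± 0.093 and 1.73 times the Col-0 value. ATG8B at 0.48 ± 0.052 and ATG8A at 0.39 ± 0.049 were also higher. ATG8E was lower by -0.45 ± 0.068 and ATG8F by -0.42 ± 0.045 (limma, adjusted p of 1.1e-05 and 1.4e-07). ATG8C, ATG8G, ATG8H and ATG8I did not pass at T15, with differences from -0.06 to 0.17 and overlapping groups. ATG8H (-0.33) and ATG8I (-0.26) were lower with the length and GC trend removed (limma, adjusted p of 0.00028 and 0.012), and ATG8C was higher at 0.16 with organelle-encoded genes removed (limma, adjusted p = 0.039).

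The widest genotype difference of the family was that of ATG8E in polysomal RNA at T15. It measured 198, 210 and 227 FPKM in Col-0 and 77.4, 76 and 79.6 in dcp5-1, with the lowest Col-0 library far above the highest mutant library. The difference was -1.43 ± 0.068 on the log2 scale (SE, limma adjusted p = 2.8e-13), 0.37 times the Col-0 value. In this comparison 4 members were higher and 2 lower, against 22.3% and 22.4% of all genes. ATG8F was at -0.53 ± 0.045, and the members that were higher were ATG8D at 0.39 ± 0.093, ATG8G at 0.34 ± 0.097, ATG8B at 0.29 ± 0.052 and ATG8A at 0.18 ± 0.049. Without the first Col-0 T15 polysomal library, ATG8G lost its call (0.26, adjusted p = 0.051 by limma) and ATG8I, at -0.17 ± 0.082 with all libraries, passed (-0.31, adjusted p = 0.00052 by limma). Removing the trend on length and GC content left the differences of ATG8E at -0.69, -0.93, -0.74 and -1.46 in total and polysomal RNA at T0 and then at T15, and those of ATG8F at -0.44, -0.53, -0.54 and -0.49. Those of ATG8D were 0.49, 0.61, 0.56 and 0.31, and all 12 of these values passed the test.

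**Figure D3:**
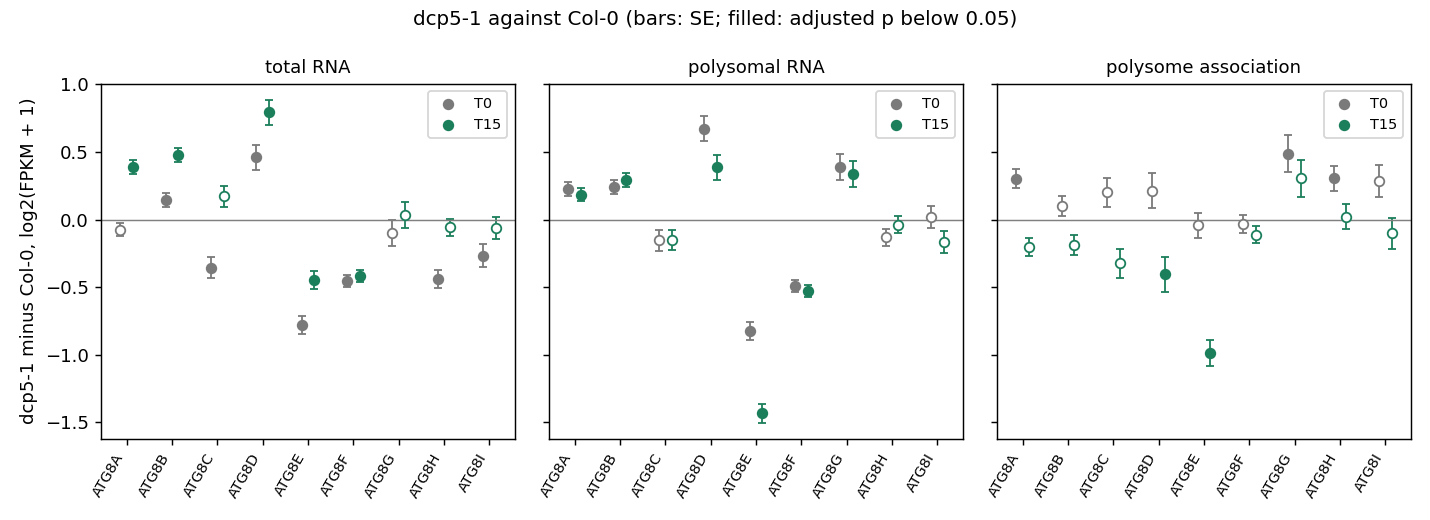
Difference between dcp5-1 and Col-0 in log2(FPKM + 1) for each ATG8 gene at T0 (grey) and T15 (green), for total and polysomal RNA and for their difference (polysome association), with SE bars and filled points below an adjusted p of 0.05. ATG8E reaches -1.43 in polysomal RNA and -0.98 in association at T15, while ATG8D lies above 0 in total and polysomal RNA at both times.

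The comparison of T15 with T0 describes the messengers after 15 min in NaCl medium, with NaCl not separated from transfer and time. It is called the NaCl response or NaCl change for short. In Col-0 total RNA, 8 of 9 members fell, against 32.4% of all genes. Their median was -0.52 against 0.01 over all genes. Once organelle-encoded genes were removed and the rest rescaled, 6 fell and 1 rose, against 21.3% and 49.9% of all genes. ATG8G was then at 0.03, ATG8I at -0.11 and ATG8F at 0.26. ATG8C fell from 121, 150 and 131 to 69.8, 77.6 and 74.4 FPKM, the steepest fall of the family at -0.85 ± 0.076 (SE, limma adjusted p = 2.3e-09). ATG8E fell from 451, 523 and 442 to 290, 292 and 273 FPKM, and ATG8A from 127, 141 and 128 to 81.9, 79.2 and 79.3. Neither pair of groups overlapped, and the changes were -0.72 ± 0.068 and -0.71 ± 0.049. ATG8F stood apart at -0.02 ± 0.045 (limma, adjusted p = 0.72), with 309, 273 and 287 FPKM at T0 and 295, 282 and 279 at T15, which overlapped. ATG8B (-0.52 ± 0.052), ATG8D (-0.52 ± 0.093), ATG8H (-0.46 ± 0.065) and ATG8I (-0.38 ± 0.082) fell as well. ATG8G fell by 0.24 on the log2 scale, from 18.7, 23.7 and 19.9 to 17.9, 19.5 and 15 FPKM, with overlapping groups. It lost the call without the second Col-0 T0 library (-0.14, adjusted p = 0.22) or without the third Col-0 T15 library (-0.14, adjusted p = 0.24 by limma).

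Transcript length moved with these falls across the table. In Col-0 total RNA the trend on length and GC content took up 33.1% of the variance in change between 20407 genes, and its value at the length and GC content of each member ran from -0.86 for ATG8E to -0.33 for ATG8G. With the trend removed, 4 members passed the test. ATG8F (0.32) and ATG8H (0.34) were higher and ATG8C (-0.32) and ATG8B (-0.12) lower, against 31.5% and 27.5% of all genes. ATG8A was then at 0.01, ATG8D at 0.10, ATG8E at 0.14, ATG8G at 0.09 and ATG8I at 0.18, with adjusted p from limma of 0.83, 0.35, 0.080, 0.42 and 0.058. Whether length as such plays a part in the falls was not tested. Among all genes of Col-0 total RNA, 6963 were higher and 6800 lower, and 10428 were higher and 4458 lower after organelle-encoded genes were removed and the rest rescaled.

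In dcp5-1 total RNA, 4 members fell, against 26.8% of all genes, and the changes were smaller in size. ATG8E fell from 260, 264 and 299 to 200, 204 and 223 FPKM without overlap, by -0.39 ± 0.068 (SE, limma adjusted p = 4.2e-05). ATG8C (-0.32 ± 0.076), ATG8A (-0.25 ± 0.049) and ATG8B (-0.18 ± 0.052) fell, and the other 5 members lay between -0.19 and 0.02. The median over the family was -0.18 against 0.01 over all genes. With the length and GC trend removed, 0 members lay below genes of like length and GC content (0 at an unadjusted p below 0.05 in limma). Above them lay 3, against 26% of all genes. These were ATG8H at 0.37, ATG8F at 0.23 and ATG8A, whose FPKM had fallen, at 0.17 (limma, adjusted p of 6.1e-05, 0.00019 and 0.0074). ATG8B, ATG8C and ATG8E were then at 0.06, -0.01 and 0.09 and did not pass. The response differed between the genotypes for 5 members, each higher in dcp5-1 minus Col-0, against 16.9% of all genes. ATG8C differed by 0.53 ± 0.11, ATG8A by 0.46 ± 0.069, ATG8H by 0.38 ± 0.092, ATG8B by 0.34 ± 0.073 and ATG8E by 0.33 ± 0.096 (limma, adjusted p of 0.0011, 5.1e-05, 0.0044, 0.0018 and 0.014). With the trend on length and GC content removed, ATG8C alone passed (0.31, limma adjusted p = 0.046), against 11% of all genes higher, and ATG8E was at -0.05. With organelle-encoded genes removed, 2 members were higher, against 8.5% of all genes. The share of called genes that were higher was then 23.8%, against 66.9% as deposited.

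**Figure D4:**
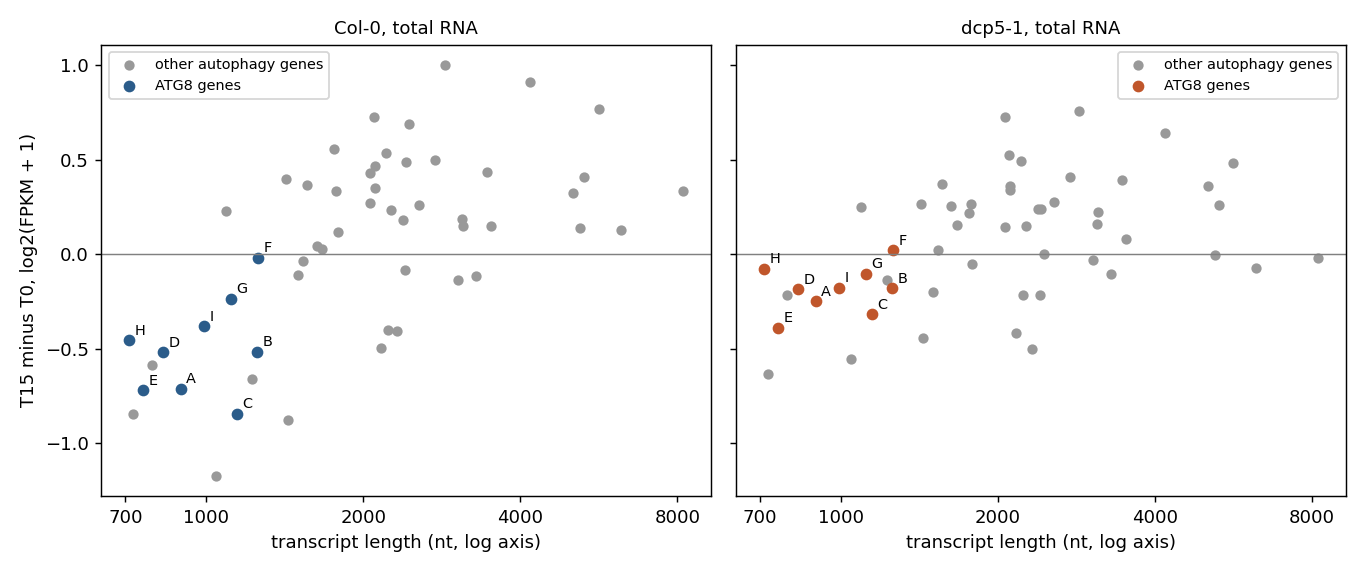
NaCl change in total RNA, as the difference of log2(FPKM + 1), against transcript length in nt on a log axis, for the 9 ATG8 genes (coloured, labelled by their last letter) and 45 other autophagy genes (grey), in Col-0 and in dcp5-1. The ATG8 transcripts measure 712 to 1259 nt and all lie near or below 0, as do most other short transcripts, while most longer autophagy transcripts lie above 0.

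In Col-0 polysomal RNA, ATG8E was the 1 member that rose, against 15.6% of all genes, from 182, 174 and 188 to 198, 210 and 227 FPKM, with all T15 libraries above all T0 libraries. The rise was 0.22 ± 0.068 on the log2 scale (SE, limma adjusted p = 0.015). It missed the threshold without the second T0 library (0.19, limma adjusted p = 0.068) or without the third T15 library (0.17, limma adjusted p = 0.091). The other 8 members lay between -0.12 and 0.10 and did not pass, with ATG8F alone below an unadjusted p of 0.05. ATG8F passed with the length and GC trend removed (0.13, limma adjusted p = 0.038).

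In dcp5-1 polysomal RNA, ATG8E fell instead, from 106, 96.8 and 103 to 77.4, 76 and 79.6 FPKM, with all T15 libraries below all T0 libraries. The change was -0.39 ± 0.068 (SE, limma adjusted p = 0.00013). ATG8I was the other of the 2 members that fell, against 15.5% of all genes, at -0.22 ± 0.082, and leaving out any of 5 of its 6 libraries ended the call, with adjusted p from limma up to 0.162. Without the trend on length and GC content, ATG8E stayed lower at -0.21, ATG8I was at -0.10 and did not pass, and ATG8F was higher at 0.17 (limma, adjusted p of 0.022, 0.42 and 0.0084). The difference between the ATG8E responses was -0.61 ± 0.096 (limma, adjusted p = 0.00024), and ATG8E was the 1 member lower in this comparison, against 4.45% of all genes. It stood at -0.52 with the length and GC trend removed (limma, adjusted p = 0.0012). The other 8 differences ran from -0.28 to 0.09 and did not pass.

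**Figure D5:**
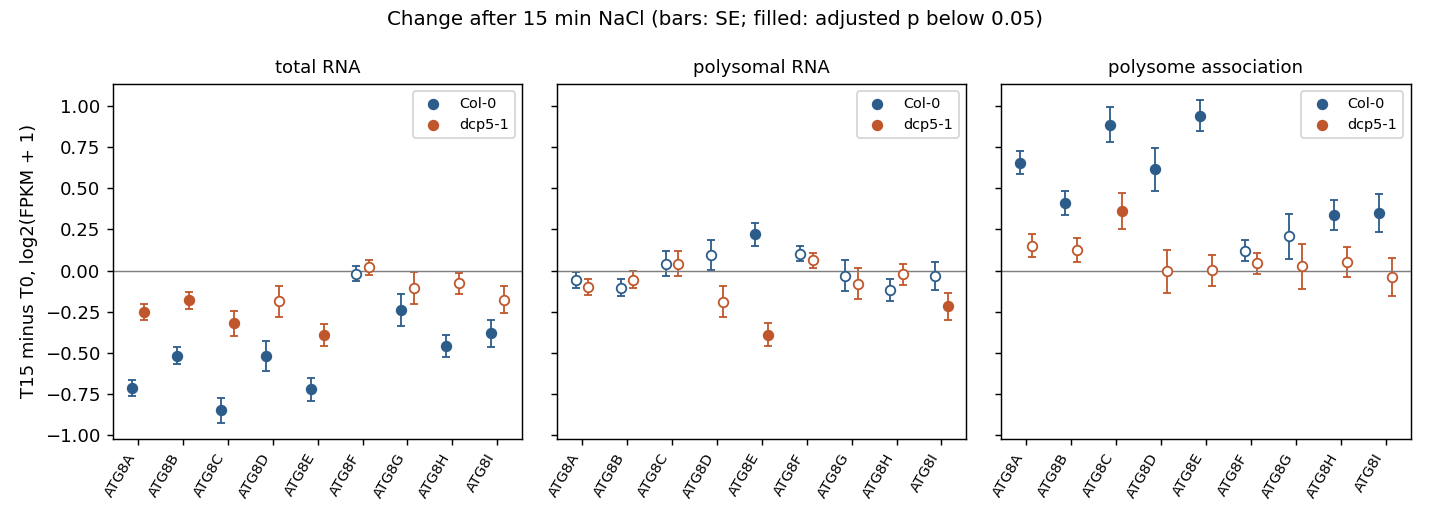
Change from T0 to T15 in log2(FPKM + 1) for each ATG8 gene in Col-0 (blue) and dcp5-1 (orange), for total and polysomal RNA and for their difference (polysome association), with SE bars and filled points below an adjusted p of 0.05. Total RNA fell in 8 members in Col-0, with ATG8G at 0.03 after organelle-encoded genes were removed, and polysomal changes lay between -0.22 and 0.10 apart from ATG8E at 0.22 in Col-0 and -0.39 in dcp5-1.

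Polysome association is the polysomal change minus the total change. In Col-0 it rose from T0 to T15 for 7 members, against 22.8% of all genes, led by ATG8E at 0.94 ± 0.096 and ATG8C at 0.89 ± 0.11 (SE, limma adjusted p of 7.2e-08 and 8.4e-07). ATG8A at 0.66 ± 0.069, ATG8D at 0.61 ± 0.13, ATG8B at 0.41 ± 0.073, ATG8I at 0.35 ± 0.12 and ATG8H at 0.34 ± 0.092 followed. ATG8F at 0.12 ± 0.064 and ATG8G at 0.21 ± 0.14 did not pass. Fewer than 7 members were called once organelle-encoded genes were removed and the rest rescaled, so that not all of these rises held. Of all genes, 13.8% were then higher and 37.8% lower, and the count of members is given with the alternatives at the end. The share of called genes that were higher was then 26.8%, against 51.5% as deposited. ATG8I lost its call without the second or the third T15 polysomal library (0.29 and 0.27, limma adjusted p of 0.059 and 0.067), and ATG8F passed without the second T0 total library (0.16, limma adjusted p = 0.030). All 7 members whose association rose had fallen in total RNA, and in polysomal RNA ATG8E had risen while the other 6 had not passed the test. With the length and GC trend removed, ATG8C alone was higher (0.39) and ATG8F (-0.20) and ATG8H (-0.36) were lower, against 15.7% and 17.2% of all genes. ATG8E was then at 0.17 (limma, adjusted p = 0.19).

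In dcp5-1, association rose for ATG8C alone, against 12.3% of all genes, at 0.36 ± 0.11 (SE, limma adjusted p = 0.015). It lost the call without the first T15 total library (0.30, limma adjusted p = 0.053), and ATG8A passed without the first T15 polysomal library (0.20, limma adjusted p = 0.044). ATG8E stood at 0.00 ± 0.096, since its total and its polysomal level fell alike. With the length and GC trend removed, ATG8C was at 0.19 and did not pass (limma, adjusted p = 0.23). ATG8E was then the 1 member called, as lower, at -0.30 (limma, adjusted p = 0.028), against 11.3% of all genes. The genotypes differed in the association response of ATG8E by -0.94 ± 0.14 and of ATG8A by -0.50 ± 0.098 (limma, adjusted p of 0.00058 and 0.005). ATG8D at -0.62 ± 0.19 and ATG8C at -0.52 ± 0.15 also passed, with adjusted p from limma of 0.0499 and 0.043, so that 4 members were lower against 4.3% of all genes. Leaving out 1 library ended the call of ATG8D in 19 of 24 cases and of ATG8C in 17 of 24, and ATG8I passed without the first Col-0 T15 polysomal library (-0.53, adjusted p = 0.0085). With the length and GC trend removed, ATG8E was at -0.47 (limma, adjusted p = 0.077) and 0 members passed by limma, with ATG8E the 1 member below an unadjusted p of 0.05. Of all genes, 0.926% were then lower and 0.774% higher.

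Between the genotypes at T0, association was higher in dcp5-1 for 3 members, against 7.73% of all genes, namely ATG8G at 0.49 ± 0.14, ATG8H at 0.31 ± 0.092 and ATG8A at 0.30 ± 0.069 (SE, limma adjusted p of 0.025, 0.036 and 0.0072). Leaving out 1 library ended the call of ATG8G in 4 of 12 cases and of ATG8H in 7 of 12. Without the trend ATG8G stayed higher at 0.47, and ATG8A (0.15) and ATG8H (0.13) did not pass (limma, adjusted p of 0.034, 0.18 and 0.41). At T15, 2 members were lower in dcp5-1, against 5.31% of all genes. ATG8E was at -0.98 ± 0.096 (limma, adjusted p = 1.7e-06) and kept its call without any 1 library. ATG8D was at -0.41 ± 0.13 (limma, adjusted p = 0.045) and lost its call in 9 of 12 cases. With the trend removed these were at -0.72 and -0.25 (limma, adjusted p of 0.00018 and 0.32).

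The rest of the autophagy pathway was counted over 46 genes in 6 lists, of which 45 were tested. Their median transcript measured 2218 nt. In Col-0 total RNA at T15, 25 rose and 8 fell, against 33.2% higher and 32.4% lower among all genes, with a median of 0.23 where the ATG8 median was -0.52. The counts were 33 and 7 with organelle-encoded genes removed, against 49.9% and 21.3% of all genes. With the trend removed, 16 lay above and 13 below genes of like length and GC content, against 31.5% and 27.5%. VPS34, the lipid kinase that marks the forming membrane with phosphatidylinositol 3-phosphate, rose by 1.00 ± 0.061, and ATG18G of the lipid-binding ATG18 proteins by 0.91 ± 0.056. KIN10, a catalytic subunit of the energy-sensing kinase SnRK1, rose by 0.53 ± 0.050 and ATG1A, of the kinase that starts autophagy, by 0.49 ± 0.059. Of the 9 genes that process and conjugate ATG8, 5 fell and 2 rose, among them ATG12A at -0.85 ± 0.092 and the conjugating enzyme ATG3 at 0.37 ± 0.056. The cargo receptor ATI1 fell by -0.88 ± 0.078 and the ubiquitin-binding receptor DSK2B rose by 0.43 ± 0.050.

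Against Col-0, most of the wider pathway that changed in dcp5-1 was lower on the deposited scale, but not in total RNA at T0 once organelle-encoded genes were removed. In total RNA at T0, 24 of 45 genes were lower and 2 higher, against 28.6% and 19.5% of all genes, and in polysomal RNA 28 were lower and 0 higher (1, VPS38, at an unadjusted p below 0.05 in limma), against 24% and 21.9%. At T15 the counts were 24 lower and 0 higher in total RNA (0 at an unadjusted p below 0.05 in limma) and 22 lower and 1 higher in polysomal RNA, against 26.1% and 24% of all genes in total and 22.4% and 22.3% in polysomal RNA. With organelle-encoded genes removed and the rest rescaled, the counts at T0 were 8 lower and 8 higher in total RNA, against 14.2% and 37.5% of all genes, and 12 lower and 4 higher in polysomal RNA, against 12.6% and 35.6%. At T15 they were 24 lower and 0 higher in total RNA, against 26.5% and 23.2% of all genes. In polysomal RNA they were 15 lower and 1 higher, against 17.5% and 24.9%. Removal of the trend left 17 to 23 genes lower and 0 to 2 higher in the 4 genotype comparisons of total and polysomal RNA. Of all genes, 22.8% to 24.2% were then lower and 22.3% to 24% higher. ATG13A, a regulatory partner of ATG1, was at -0.62 ± 0.076 in total and -0.67 ± 0.076 in polysomal RNA at T0, and ATG18F at -0.54 ± 0.073 and -0.51 ± 0.073. ATG16 was at -0.33 ± 0.060 and -0.38 ± 0.060, and VPS15, the partner of VPS34, at -0.33 ± 0.059 in both. The ATG8 genes that were higher in polysomal RNA at T0, namely ATG8A, ATG8B, ATG8D and ATG8G, therefore went opposite to every other autophagy gene called there on the deposited scale, and with organelle-encoded genes removed 4 of the other genes were higher too.

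Across the 24 libraries the members fell into patterns that are described here by Pearson's r on log2(FPKM + 1). The libraries share genotype, time and fraction, and transcript length runs through all of them, so these values are descriptions. ATG8A and ATG8B were the most alike at 0.979. ATG8E and ATG8F were each other's nearest member at 0.933, but other pairs were closer, such as ATG8C and ATG8H at 0.965 and ATG8B and ATG8G at 0.952. ATG8D was least like ATG8F and ATG8E, at 0.223 and 0.323. Among 10109 nuclear genes with a mean of at least 10 FPKM and a transcript of at least 300 nt, those nearest to ATG8E were AT4G32590 (0.974), AT5G65207 (0.969) and AT2G41475 (0.965). Nearest to ATG8C were AT4G13500 (0.989), the calmodulin gene CAM6 (0.989) and AT3G20510 (0.987), and nearest to ATG8G were AT5G64850 (0.987), AT1G54290 (0.985) and AT2G04520 (0.983).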

How the data were processed

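RNA of 24 Arabidopsis samples was sequenced with a standard mRNA library protocol, per the labels' protocols. Alignment used Bowtie on TAIR10, per the submitters' processing notes. No source used here names the program that assigned fragments to genes or says whether libraries were scaled to each other. The deposited values are FPKM, which was inferred from the values. For nuclear genes with 1 transcript of at least 1000 nt, 98.2% to 98.9% of the low values (up to 20 fragments) lay within 0.1 of a whole fragment when 250 to 280 nt were taken off the transcript length, so that the authors' division appears to use an effective length. It was 250 to 260 nt in total and 265 to 280 nt in polysomal libraries, and levels of short transcripts such as ATG8 depend on it. FPKM are relative within a library.

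Limma 3.58.1 (R 4.3.3, trend, robust) was fitted to log2(FPKM + 1) over 8 groups with 16 residual degrees of freedom, for genes of at least 1 FPKM in 3 or more libraries (55% of the table), with Benjamini-Hochberg adjustment over all genes tested in each of 19 comparisons. Changes of low genes are understated on this scale. The fit was run on simulated data with independent noise and few changed genes, without a length trend or a shift in scale. That run therefore cannot speak to either. Python 3.11.15, numpy 2.4.6, pandas 2.3.3 and Biopython 1.88 were used for the rest. Positions, lengths and sequences come from RefSeq TAIR10.1, which matched 99.2% of the identifiers and may differ from the authors' annotation. Motifs were searched on both strands.

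Named were the 9 members, DCP5, from each other list the members of smallest adjusted p, and the 3 nearest genes of the members with the widest range over group means (ATG8E, ATG8C and ATG8G). The members and lists were chosen with earlier results of these data known. Table columns name the group but not the replicate number of the sample titles, and values follow column order. The ecotype labels of dcp5-1 samples count upward from Col-1, and the genotype label was used instead. Alternatives were a pseudocount of 0.1, no filter, scaling by median of ratios, rescaling without organelle-encoded genes, removal of a spline trend on length and GC content (6 and 4 degrees of freedom), a fit of only the groups compared, a replicate block, and each library left out.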

Additional observations from a re-analysis of the deposited data

Results flagged for a closer look

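The NaCl response differed between dcp5-1 and Col-0, by the test of the difference itself in limma, for 10 combinations of gene and RNA measure. In total RNA the difference of the log2 changes, dcp5-1 minus Col-0, was 0.46 for ATG8A, 0.34 for ATG8B, 0.53 for ATG8C, 0.33 for ATG8E and 0.38 for ATG8H. In polysomal RNA it was -0.61 for ATG8E. In polysome association it was -0.50 for ATG8A, -0.52 for ATG8C, -0.62 for ATG8D and -0.94 for ATG8E. Over all genes, 16.9% were higher in the difference in total RNA, and 4.45% and 4.3% were lower in that of polysomal RNA and association. Association is the polysomal change minus the total change. The 3 ATG8E values therefore share libraries and are not separate observations, and the same holds for the values of ATG8A and of ATG8C. With organelle-encoded genes removed, 2 of the 5 differences in total RNA and 2 of the 4 in association kept their call. With the trend on length and GC content removed, 1 and 0 did, and ATG8E in polysomal RNA kept its call under both. Leaving out 1 library ended the call in association of ATG8D in 19 and of ATG8C in 17 of 24 cases.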

How the results depend on the processing

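Of 171 values per alternative (9 members in 19 comparisons), the direction and the side of the threshold held in 171 with a pseudocount of 0.1, 170 with median-of-ratios scaling, 163 without the filter, 163 with only the groups compared, 149 with organelle-encoded genes removed and 129 without the trend on length and GC content. The genotype differences of ATG8E, ATG8F and ATG8D in total and polysomal RNA held in all of these and without any 1 library. Removing the trend turned the sign of called values, which gives a place among genes of like length and GC content and not an opposite response. For NaCl in Col-0 total RNA these were ATG8A (0.013), ATG8D (0.10), ATG8E (0.14), ATG8G (0.093), ATG8H (0.34) and ATG8I (0.18). In Col-0 association they were ATG8H (-0.36) and ATG8I (-0.13), and in dcp5-1 total RNA ATG8A (0.17), ATG8B (0.058) and ATG8E (0.089). ATG8E (-0.051) turned in the difference of the total responses. Only ATG8H in Col-0 total RNA and association and ATG8A in dcp5-1 total RNA then passed (limma, adjusted p of 0.00012, 0.0046 and 0.0074). Removing organelle-encoded genes turned the sign of ATG8G in Col-0 total RNA (0.029). The cause of these changes of sign was not tested.

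That rescaling moved the median of all genes by 0.22 for NaCl in Col-0 total RNA, -0.20 in Col-0 association, -0.11 in dcp5-1 association, 0.18 and 0.13 for genotype at T0 in total and polysomal RNA, -0.19 for the difference of the total responses, and -0.21 and -0.16 for polysomal against total RNA at T15 in Col-0 and dcp5-1. The share of called genes that were higher went from 51.5% to 26.8% for Col-0 association, 52.5% to 31.1% for dcp5-1 polysomal RNA, 46.8% to 27.5% for dcp5-1 association, 71.1% to 57.1% and 58.5% to 69.1% for association between genotypes at T0 and T15, 59.4% to 29.2% and 31.2% to 50.6% for the differences in polysomal RNA and association, and 51.5% to 28.6% and 50.7% to 35.2% for polysomal against total RNA at T15 in Col-0 and dcp5-1.

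Counts of members called that moved by over 1.5 times with the trend removed were as follows: NaCl in Col-0 4 (2 higher, 2 lower) in total, 2 in polysomal RNA and 3 in association, association between genotypes 1 at T0 and 1 at T15, and the difference of the responses 1 in total RNA and 0 in association. Smaller moves were 3 higher and 0 lower for NaCl in dcp5-1 total RNA, in place of 4 lower, 8 called for genotype at T0 in polysomal RNA and 7 at T15 in total RNA, in place of 6 and 5. Without the trend, the shares of all genes higher and lower were 31.5% and 27.5%, 15.5% and 15.3%, and 15.7% and 17.2% for NaCl in Col-0. They were 5.05% and 4.35%, and 2.33% and 2.23%, for association between genotypes at T0 and T15. For the differences they were 11% and 8.33% in total RNA and 0.774% and 0.926% in association. For the smaller moves they were 26% and 24.7%, 22.8% and 23.4%, and 22.3% and 22.8%. Removing organelle-encoded genes gave 4 for Col-0 association, 4 for dcp5-1 polysomal RNA, and 2 each for the differences in total RNA, polysomal RNA and association. Of all genes, 13.8% were then higher and 37.8% lower for Col-0 association, and 10.3% and 22.9% for dcp5-1 polysomal RNA. For the differences these shares were 8.5% and 27.3% in total RNA, 3.46% and 8.38% in polysomal RNA, and 3.01% and 2.93% in association. Without the filter the counts were 1 for dcp5-1 polysomal RNA, 1 for association between genotypes at T0, 1 at T15 and 2 for the difference in association. Median-of-ratios scaling gave 1 for dcp5-1 polysomal RNA, against 18% of all genes higher and 14.9% lower. Leaving out single libraries gave 0 to 1 for Col-0 polysomal RNA, 1 to 2 for dcp5-1 polysomal RNA, 0 to 2 for dcp5-1 association, 1 to 3 for association between genotypes at T0 and at T15, 1 to 2 for the difference in polysomal RNA and 2 to 4 for that in association. Further such counts ranged from 5 to 7 (genotype, T0 total), 6 to 8 (Col-0 association) and 7 to 8 (Col-0 total). Ranges were 4 to 5 for dcp5-1 total RNA and 6 to 7 for genotype in polysomal RNA at T0. They were 5 to 6 for genotype in total RNA at T15 and for the difference in total RNA, and the rest did not move.

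No label ties equal numbers to a shared culture, and same-numbered libraries of different groups did not deviate together (median r of -0.03, range -0.17 to 0.15 over 84 pairs). With a replicate block, 167 of 171 values kept their call, dcp5-1 polysomal RNA had 1 member called (ATG8I at -0.22, limma adjusted p = 0.059), ATG8D missed the threshold in the difference in association (limma adjusted p = 0.054), and ATG8C passed at T15 in total RNA and association.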
